A study of Mus musculus with 8 samples.

Results

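The genes followed here are those for the constant regions of the immunoglobulin heavy and light chains and for the J chain. They were taken by gene symbol alone, whatever their counts, and made up 10 of the 20696 genes listed in the deposited tables. The symbols gave 6 heavy chain genes (Ighm, Ighg3, Ighg1, Ighg2b, Ighg2c and Ighe), 3 light chain genes (Igkc, Iglc2 and Iglc3) and Igj, the J chain. The LT-HSC table listed 9 of them among 19685 genes and the MPP table listed 10 among 18904 genes, with Ighe matched in the MPP table. Other isotype genes, such as those of IgA and IgD, and other lambda constant genes were not analysed here.

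Poly(A) RNA was sequenced from 2 mouse bone marrow populations, long-term haematopoietic stem cells (LT-HSC), able to regenerate blood lastingly after transfer, and multipotent progenitors (MPP), which descend from them and still give rise to many lineages. Every group came from flow-sorted marrow of mice 20 weeks after a transplant, with a labelled age of 6 months and a labelled strain of CD57BL/6. The transplanted marrow was wild type (WT) or carried a knockout (KO) of Tet1, an enzyme that oxidises 5-methylcytosine in DNA. WT and KO of each population gave 4 groups of 2 libraries, made from 10000 LT-HSC or 100000 MPP each. The form of the Tet1 allele, the sort gates, the sex of donors and recipients and any pooling of animals were not stated in the labels. Whether the 2 libraries of a group came from separate animals is not stated either, so each p-value reflects the spread of these libraries alone, and that spread may be technical.

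An antibody is built from heavy and light chains, each with a variable part that binds antigen and a constant part. The heavy chain constant gene in use sets the isotype: Ighm gives IgM, the first isotype a B cell makes, and class switching, a DNA recombination within the locus, joins the variable part to a downstream gene such as Ighg1 or Ighe instead. Light chains use Igkc (kappa) or an Iglc gene (lambda), and Igj encodes the J chain that links subunits of secreted IgM and IgA. These genes are transcribed very strongly in plasma cells, the antibody-secreting end stage of B cells, many of which live in the bone marrow.

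Each LT-HSC library held between 4976459 and 5479731 counts and each MPP library between 11928659 and 12504581. Levels below are CPM, that is, raw counts scaled to the library total. Tet1 itself stood at 60.6 and 86.0 CPM in LT-HSC WT and 62.7 and 74.9 CPM in LT-HSC KO, so its level overlapped there, and at 101 and 110.0 CPM in MPP WT against 61.2 and 69.0 CPM in MPP KO. The Tet1 counts therefore do not check the LT-HSC KO label, and the 2 libraries concerned are called by that label throughout. The summed level of 4 Y-linked genes was 143 to 177 CPM in the WT libraries of both populations and 2.88 to 14.4 CPM in the KO libraries, so the sex of the sampled cells cannot be told apart from genotype. A list of 8 LT-HSC markers summed to 1555 to 2050 CPM in LT-HSC and 849 to 918 CPM in MPP, and no gene of it was at 0.

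In the deposited tables, on mm9, the heavy chain genes lie on the minus strand of chromosome 12 in the order in which they are transcribed. Ighm is at chr12:114659078-114660941, and its downstream neighbours are Ighg3 (chr12:114597876-114599443), Ighg1 (chr12:114567187-114568734), Ighg2b (chr12:114544600-114546144), Ighg2c (chr12:114523536-114527141) and Ighe (chr12:114509391-114511457). Igkc is at chr6:70676429-70676751 on the plus strand, Iglc2 (chr16:19198494-19200444) and Iglc3 (chr16:19065327-19067266) are on the minus strand, and so is Igj (chr5:88949537-88956916). The 4 gamma genes are related in sequence, and each has an exon for the hinge, the flexible link in which cysteines join the 2 heavy chains. These exons (exon 2, minus strand, reference sequence of GENCODE M21 on GRCm38, written 5′ to 3′) are shown because the results below turn on telling the gamma genes apart. Capitals mark the in-frame cysteine codons.
Ighg3, chr12:113360529-113360576: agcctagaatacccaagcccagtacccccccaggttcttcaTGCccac
Ighg1, chr12:113329844-113329882: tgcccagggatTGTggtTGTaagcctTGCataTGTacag
Ighg2b, chr12:113307261-113307326: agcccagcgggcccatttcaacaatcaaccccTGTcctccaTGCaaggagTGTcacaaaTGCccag
Ighg2c, chr12:113288263-113288325: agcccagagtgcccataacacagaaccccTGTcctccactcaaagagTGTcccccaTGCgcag

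The hinge exon of Ighg1 was the shortest of these 4 at 39 bp and that of Ighg2b the longest at 66 bp, and the number of cysteine codons ran from 1 in Ighg3 to 4 in Ighg1 and Ighg2b. Over the whole coding sequence, Ighg2b and Ighg2c were 85.9% identical, and 56 of the 958 stretches of 50 bases in Ighg2b, the read length, also occur exactly in Ighg2c. Iglc2 and Iglc3 (96.5% identical) shared 38 of 266 such stretches. The remaining gamma pairs were 75.7% to 77.7% identical. Ighm, Ighg1, Ighg3, Ighe and Igkc shared no such stretch with another of these genes. How reads were counted is not given in these sources, and the division of counts within the pairs Ighg2b with Ighg2c and Iglc2 with Iglc3 is uncertain.

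In MPP, heavy chain, kappa and J chain transcripts were more abundant in the KO libraries, and the size of the difference depended strongly on the isotype. Of the 10 genes, 7 rose and 1 fell by edgeR's quasi-likelihood test with Benjamini-Hochberg adjustment over all genes (threshold 0.05, used for every adjusted p below). Among all 14902 genes tested in MPP, 4.74% rose and 2.46% fell, 7.20% together. All 10 genes passed the filter on low counts, and their median log2 fold change was 1.35, beside -0.01 over all genes tested. Ighe, 1 of the 7 that rose, passed that filter only through the KO libraries, where it was high. Since these are bulk samples, a change in the number of cells of a type and a change in RNA per cell cannot be told apart.

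Ighm, the gene of IgM, stood at 9473 and 9701 CPM in the WT libraries and at 18973 and 19174 CPM in the KO libraries. The KO libraries lay clearly above WT, and the pairs within each genotype were close. The log2 fold change was 1.07 (SE 0.07, adjusted p = 0.00403 by edgeR).

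Ighg3, the gamma gene nearest to Ighm, gave the largest change among the abundant members. Its level was 90.9 and 85.5 CPM in MPP WT and 1454 and 1205 CPM in MPP KO, so that the least KO library was far above both WT libraries. The log2 fold change was 3.99 (SE 0.12, adjusted p = 0.00077 by edgeR), and the ratio of mean levels was 15.1.

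Ighg1, the next gene downstream, did not follow. It was at 401 and 329 CPM in MPP WT and at 459 and 372 CPM in MPP KO, with overlapping groups. Its log2 fold change was 0.26 (SE 0.14, adjusted p = 0.306 by edgeR), which does not show that the levels were equal.

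Ighg2b, which encodes IgG2b, was at 1794 and 1601 CPM in MPP WT and at 12159 and 10611 CPM in MPP KO. Its log2 fold change, 2.82 (SE 0.11, adjusted p = 0.00101 by edgeR), placed it between Ighg3 and Ighg2c. Ighg2c, which encodes IgG2c, was at 1674 and 1391 CPM in WT and 4184 and 3703 CPM in KO. It rose by 1.44 on the log2 scale (SE 0.12, adjusted p = 0.00727 by edgeR). For both genes the KO libraries were well separated from WT.

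Ighe, the gene of IgE, was rare. It had 1 count in each MPP WT library and 25 and 22 counts in the MPP KO libraries, or 1.89 ± 0.159 CPM (SD, n = 2). Summed over the libraries of each genotype and scaled to their totals, KO was 22.6 times WT, with an exact 95% counting interval from 5.92 to 192 that covers counting error only. It was among the genes that rose (adjusted p = 0.0125 by edgeR). With 1 count in each WT library, Ighe passed the filter on low counts only through the KO libraries. Its call is therefore no independent support.

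Among the light chains, Igkc, the kappa constant gene, was at 4531 and 5713 CPM in MPP WT and at 10723 and 14177 CPM in MPP KO. Both KO libraries were above both WT libraries, though the replicates of each genotype differed more than for Ighm. Igkc rose by 1.36 (log2, SE 0.18, adjusted p = 0.0216 by edgeR). The lambda gene Iglc2 was at 148 and 151 CPM in WT and 172 and 168 CPM in KO, and its log2 fold change, 0.26 (SE 0.06), did not pass the test (adjusted p = 0.0740 by edgeR). Iglc3 was the 1 gene that fell, from 120.2 and 123 CPM in WT to 73.6 and 67.2 CPM in KO, with separate groups. Its log2 fold change was -0.71 (SE 0.07, adjusted p = 0.0120 by edgeR). Of the summed counts of Igkc, Iglc2 and Iglc3, the lambda genes Iglc2 and Iglc3 accordingly made up 5.08% ± 0.730 (SD, n = 2) in MPP WT. In MPP KO they made up 1.94% ± 0.433 (SD, n = 2).

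Igj, whose product joins IgM and IgA subunits, was at 1726 and 2251 CPM in MPP WT and at 3877 and 5632 CPM in MPP KO. The groups did not overlap, and replicate 2 was the higher library in both genotypes. Igj rose by 1.33 (log2, SE 0.22, adjusted p = 0.0350 by edgeR). Both KO libraries were above both WT libraries for 8 of the 10 genes and below them for 1, where 21.3% and 35.4% of all 18830 genes with a count in MPP did so.

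**Figure D1:**
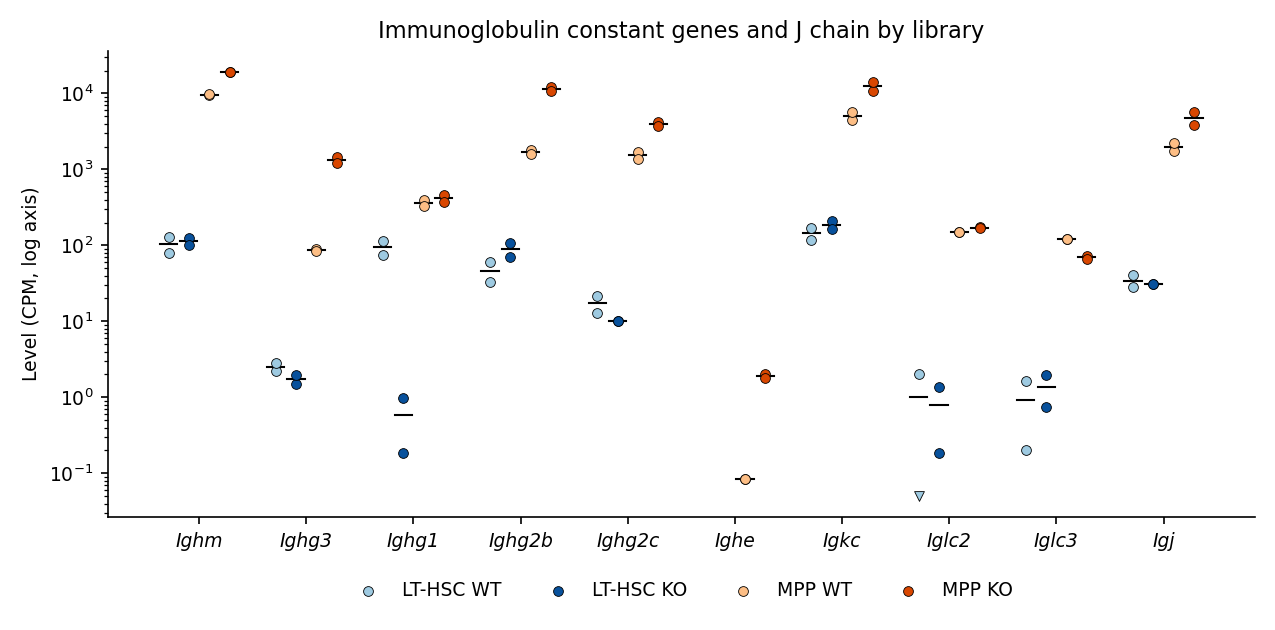
Level of each gene in CPM (log axis) in each of the 8 libraries, with a bar at the group mean. Each point is a library, coloured by group, and the downward triangle is the LT-HSC WT library with 0 counts of Iglc2. MPP points lie above LT-HSC points of the same genotype for all 9 genes matched in both tables, and Ighg1 in LT-HSC KO lies below 1 CPM.

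All 8 calls in MPP rested on having both WT libraries. Without MPP WT replicate 1 or without replicate 2, no gene of the whole table passed the test, while 8 of the 10 genes kept an unadjusted p under 0.05 in each case and the log2 fold change of Ighg3 was 4.02 and 3.95. Without MPP KO replicate 2 the calls of Igkc (adjusted p = 0.0609), Igj (0.0855), Ighe (0.0553) and Iglc3 (0.0713) were lost, Ighe was lost too without KO replicate 1 (0.0587), Igj without the filter on low counts (0.0665), and Iglc3 in a fit of all 8 libraries (0.157), all by edgeR.

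In LT-HSC the picture was different: levels were low and Ighg1 was the 1 gene called. It had 625 and 370 counts in LT-HSC WT, or 114 and 74.4 CPM, and 1 and 5 counts in the libraries labelled KO, or 0.187 and 0.988 CPM. The WT libraries were far above both others, and the KO libraries were near the floor of 0.560 and 0.593 CPM that 3 counts give. Over the summed counts WT was 165 times KO, with an exact 95% counting interval from 75.6 to 451. The log2 fold change was -7.31 (SE 0.49, adjusted p = 9.82e-05 by edgeR). With so few counts in KO, Ighg1 passed the filter on low counts only through the WT libraries, where it was high. Its call is therefore no independent support. Ighg1 kept this call in all 11 alternative analyses, with log2 fold changes from -8.79 to -6.59 and adjusted p up to 0.00412.

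No other gene of the 7 that passed the filter in LT-HSC was called, while 10.9% of all 15684 genes tested fell and 22.5% rose, 33.4% together. The median of the 7 was -0.14 on the log2 scale, beside 0.03 over all genes tested. The KO libraries were above both WT libraries for 1 of 9 genes (Ighg2b) and below for 3 (Ighg1, Ighg2c and Ighg3), where 41.0% and 26.2% of all 19546 genes with a count did so. These shares give no reading of the genes as a set.

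Ighg2b was at 60.0 and 32.6 CPM in LT-HSC WT and at 107 and 70.8 CPM in the libraries labelled KO. The groups did not overlap, but the replicates differed nearly as much as the genotypes, and the log2 fold change of 0.93 (SE 0.33) missed the threshold (adjusted p = 0.0626 by edgeR). It was called by DESeq2 (adjusted p = 0.0333) and in the fit of all 8 libraries by edgeR (0.0357), and the authors' deposited table gives it an FDR of 0.0138. Its log2 fold change ran from 0.47 to 1.485 when a library was left out. Ighg2c was at 21.4 and 13.1 CPM in WT and at 10.1 CPM in each KO library, and its log2 fold change was -0.79 (SE 0.35, adjusted p = 0.122 by edgeR). It was called lower in the fit of all 8 libraries (0.0347) and without LT-HSC WT replicate 2 (log2 -1.18, adjusted p = 0.00342 by edgeR), and leaving out a library gave values from -1.18 to -0.34.

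Ighm overlapped between genotypes in LT-HSC, with 130 and 78.8 CPM in WT and 124 and 101 CPM in KO. Its log2 fold change was 0.10 (SE 0.27, adjusted p = 0.810 by edgeR). Igkc, at 171 and 117 CPM in WT and 207 and 163 CPM in KO, overlapped as well (log2 fold change 0.35, SE 0.24, adjusted p = 0.310 by edgeR). Igj was at 40.1 and 28.1 CPM in WT and 31.0 and 31.4 CPM in KO, and its log2 fold change was -0.14 (SE 0.25, adjusted p = 0.703 by edgeR).

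For the genes with the fewest counts in LT-HSC, no difference was detectable at this depth. Ighg3 had 12 and 14 counts in WT and 8 and 10 in KO, a ratio of 0.695 whose exact 95% interval ran from 0.359 to 1.32. The lambda genes did not pass the filter: Iglc2 had 11 and 0 counts in WT and 1 and 7 in KO, and Iglc3 had 9 and 1 in WT and 4 and 10 in KO. A count of 0 in LT-HSC WT replicate 2 allows up to 0.603 CPM.

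**Figure D2:**
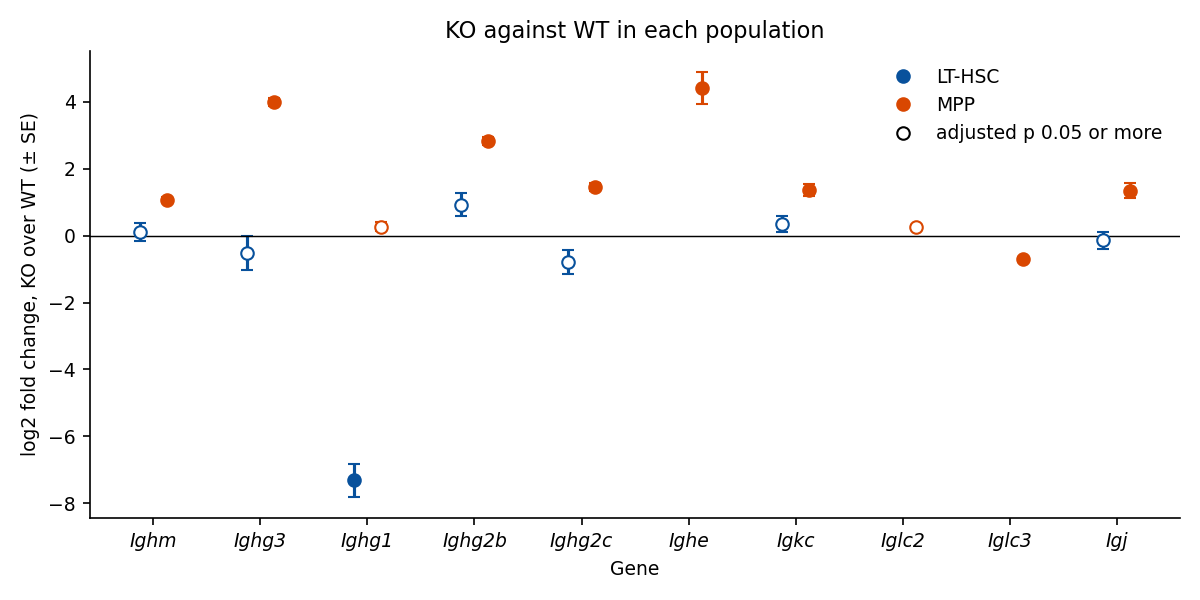
Log2 fold change of KO over WT for each gene in LT-HSC (blue) and MPP (orange), with bars of 1 SE from edgeR's fit of 2 libraries against 2. Filled points passed the adjusted p threshold of 0.05 and open points did not, and a gene not tested has no point. Ighg1 in LT-HSC stands at -7.31, and Ighe, Ighg3 and Ighg2b in MPP stand between 2.82 and 4.41.

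The isotype mix was also described as shares of the heavy chain constant counts, not corrected for gene length. In LT-HSC WT, Ighm held 39.3% ± 0.368 (SD, n = 2) of heavy chain constant counts, Ighg1 35.9% ± 1.44 and Ighg2b 17.2% ± 1.56. In LT-HSC KO, Ighm held 52.9% ± 2.59 and Ighg2b 41.2% ± 4.15. Ighg1 there held 0.0769% in replicate 1 (exact 95% interval 0.00195% to 0.428%) and 0.534% in replicate 2 (0.174% to 1.24%). Both WT libraries were thus far above both KO libraries in their Ighg1 share.

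In MPP the shares moved between other isotypes. Ighm held 72.3% ± 2.47 (SD, n = 2) of heavy chain counts in MPP WT and 52.8% ± 2.63 in MPP KO, while Ighg2b went from 12.8% ± 0.806 to 31.5% ± 1.70 and Ighg3 from 0.664% ± 0.0174 to 3.67% ± 0.332. Ighg1 held 2.75% ± 0.336 in WT and 1.15% ± 0.122 in KO, although its CPM overlapped between genotypes. Ighg2c kept a similar share, 11.5% ± 1.31 and 10.9% ± 0.481. With 2 libraries against 2, an exact permutation test cannot pass 0.05, so no test was run on shares.

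The gamma genes together held 60.7% ± 0.368 (SD, n = 2) of heavy chain counts in LT-HSC WT and 47.1% ± 2.59 in LT-HSC KO, against 27.7% ± 2.47 in MPP WT and 47.2% ± 2.62 in MPP KO. The gamma share was thus lower in KO in LT-HSC and higher in KO in MPP, and in each population the 2 genotypes did not overlap. Summed heavy chain levels were 264 ± 88.9 CPM in LT-HSC WT and 214 ± 40.9 CPM in LT-HSC KO, well within their spread, and 13270.0 ± 230 CPM in MPP WT and 36149 ± 1531 CPM in MPP KO.

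**Figure D3:**
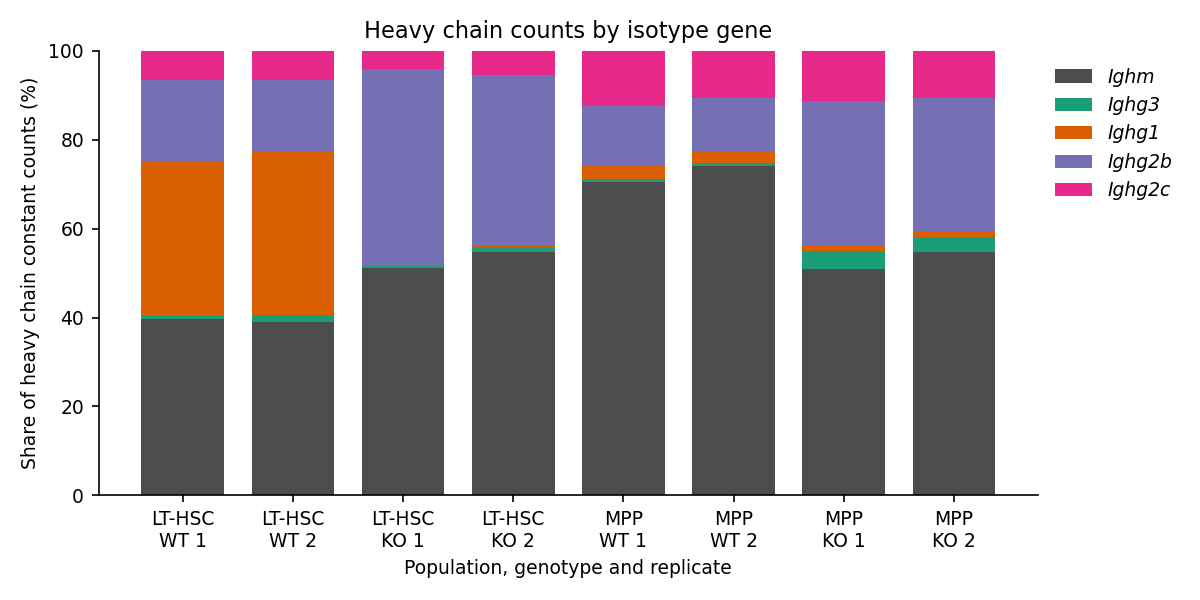
Share of heavy chain constant counts (%, from 0 to 100) held by each isotype gene in each of the 8 libraries; Ighe, with under 0.01% in every MPP library, is not drawn. The Ighg1 segment is 34.9% and 36.9% in LT-HSC WT and nearly absent from LT-HSC KO, and the Ighg2b segment is larger in KO than in WT in both populations.

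Whether the KO to WT ratio differed between LT-HSC and MPP was asked with an interaction term over all 8 libraries. Of the 9 genes matched in both tables, 5 had a lower KO to WT ratio in LT-HSC than in MPP, where 8.50% of all 16551 genes tested did. None was called in the other direction, in which 13.6% of all genes were, and 22.1% were called in all. The comparison shares its libraries with those above and is no independent evidence. The difference of log2 fold changes was -7.60 for Ighg1 (SE 0.54, adjusted p = 0.000371 by edgeR) and -4.52 for Ighg3 (SE 0.35, adjusted p = 0.000514). It was -2.23 for Ighg2c (SE 0.32, adjusted p = 0.00413), -1.90 for Ighg2b (SE 0.41, adjusted p = 0.0150) and -1.48 for Igj (SE 0.34, adjusted p = 0.0187).

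For Ighg1 the difference came with a fall in LT-HSC and no call in MPP, and for Ighg3 with a rise in MPP and no call in LT-HSC. Igkc (-1.01, SE 0.33, adjusted p = 0.0610 by edgeR) and Ighm (-0.97, SE 0.32, adjusted p = 0.0597) did not pass by edgeR, and passed by DESeq2 (adjusted p = 0.0257 and 0.0237). The calls of Ighg2b and Igj were lost in 4 and 4 of the 8 fits that left out a library: Ighg2b without LT-HSC KO replicate 2 (adjusted p = 0.0544), MPP KO replicate 1 (0.0620), MPP WT replicate 1 (0.0548) or MPP WT replicate 2 (0.0588), and Igj without LT-HSC WT replicate 1 (0.0522), LT-HSC KO replicate 1 (0.0686), LT-HSC KO replicate 2 (0.0639) or MPP WT replicate 1 (0.0736).

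All 9 genes were lower in LT-HSC than in MPP in both genotypes. Among all genes tested in WT, 16.9% were lower in LT-HSC and 17.4% higher, 34.3% together, and in KO 23.6% were lower and 27.2% higher, 50.8% together. Within WT the log2 fold change of LT-HSC over MPP ran from -1.92 for Ighg1 (SE 0.25, adjusted p = 0.00345 by edgeR) to -7.11 for Iglc2 (SE 0.54, adjusted p = 0.000474). The Iglc2 value rested on 11 and 0 counts in LT-HSC WT: it was -6.17 without LT-HSC WT replicate 2, and without replicate 1 no count was left there, so that no fold change can be given. Ighg1 was the gene with the smallest gap, since LT-HSC WT held 94.2 ± 28.1 CPM (SD, n = 2) of it and MPP WT 365 ± 50.9 CPM. In the KO comparison the values ran from -5.84 for Iglc3 (SE 0.29) to -9.72 for Ighg3 (SE 0.25), and Ighg1 stood at -9.60 (SE 0.34, adjusted p = 3.36e-06 by edgeR). The order of these last 2 genes was not stable: with 1 and 5 counts in LT-HSC KO, Ighg1 was at -11.17 without LT-HSC KO replicate 2, where Ighg3 was at -9.93, and at -8.84 without replicate 1, where Ighg3 was at -9.53.

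The genes matched in each table made up 0.0445% ± 0.0139 (SD, n = 2) of all counts in LT-HSC WT and 0.0432% ± 0.00698 in LT-HSC KO. In MPP they made up 2.06% ± 0.0976 in WT and 5.36% ± 0.214 in KO. The ratio of Igkc counts to heavy chain counts was 0.552 ± 0.0393 in LT-HSC WT and 0.866 ± 0.0216 in LT-HSC KO, without overlap, and 0.387 ± 0.0697 and 0.346 ± 0.0822 in MPP WT and KO, which overlapped.

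Levels of different genes can be set side by side only per length. On the scale of CPM per kilobase of exon, using GENCODE M21 exon lengths matched to the deposited gene spans, Igkc led every group, at 446 ± 120 (SD, n = 2) in LT-HSC WT, 572 ± 95.5 in LT-HSC KO, 15857 ± 2587 in MPP WT and 38544 ± 7561 in MPP KO. In LT-HSC WT the next were Ighg1 (96.7 ± 28.8) and Ighm (76.2 ± 26.3), which did not differ beyond their spread, then Ighg2b (45.8 ± 19.2). In LT-HSC KO, Ighg2b (88.1 ± 25.5) and Ighm (82.4 ± 11.8) followed Igkc and overlapped, and Ighg1 (0.603 ± 0.582) overlapped with Iglc2 (1.30 ± 1.40) near the floor. In MPP WT, Ighm (7013 ± 118) stood well above Ighg2b (1681 ± 135), and the latter overlapped with Igj (1427 ± 267). In MPP KO, Ighm (13953 ± 104) was nearer to Ighg2b (11272 ± 1084), with both Ighm libraries still above. Iglc3 had no matched length and is left out of this order.

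Genes of the antibody-secreting program, a list of transcription factors, surface receptors and secretory pathway genes that plasma cells use, were taken next. In MPP, 14 of the 15 list genes rose by edgeR and 12 by DESeq2, where 4.74% of all genes rose by edgeR, with a median log2 fold change of 0.87 against -0.01 over all genes. The largest were Eaf2, a transcription elongation cofactor (8.55 and 8.73 CPM in WT, 34.2 and 36.7 CPM in KO, log2 2.11, SE 0.11), Derl3, which acts in endoplasmic reticulum quality control (24.0 and 23.7 CPM against 77.4 and 73.3 CPM, log2 1.74, SE 0.08), and Prdm1, the regulator of plasma cell fate known as Blimp-1 (25.3 and 25.6 CPM against 78.0 and 80.1 CPM, log2 1.71, SE 0.08). For each of these 3 the KO libraries were well above WT, with adjusted p of 0.00194, 0.00139 and 0.00139 by edgeR. The exception was Fkbp11, a chaperone of the secretory pathway (log2 0.00, SE 0.39, adjusted p = 0.998). Without MPP KO replicate 1 or 2, 9 and 8 list genes were called, and without either MPP WT library 0 were called by edgeR, while 14 had an unadjusted p under 0.05.

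In LT-HSC the same list was mixed: of 13 genes tested, 2 rose, 3 fell and 8 were not called, where 22.5% of all genes rose and 10.9% fell, with a median of -0.47 against 0.03 over all genes. The 3 lower calls became 0 without LT-HSC KO replicate 1 or without replicate 2, and 7 of 15 in the fit of all 8 libraries. Sdc1, the plasma cell surface protein CD138, had 11 and 21 counts in WT and 1 and 3 in KO (log2 fold change -2.92, SE 0.74, adjusted p = 0.0165 by edgeR). Prdm1 went the other way, with 10 and 9 counts in WT and 54 and 24 in KO (log2 2.02, SE 0.55, adjusted p = 0.0228). Sdc1 passed the filter on low counts only through the WT libraries and Prdm1 only through the KO libraries, so neither call is independent support. Both calls were fragile. That of Sdc1 was lost without LT-HSC WT replicate 2 (adjusted p = 0.130), KO replicate 1 (0.201) or KO replicate 2 (0.0815), and that of Prdm1 without KO replicate 1 (0.293). Ell2, an elongation factor that favours secreted immunoglobulin transcripts, rose by 1.02 (log2, SE 0.18, adjusted p = 0.00367 by edgeR).

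**Figure D4:**
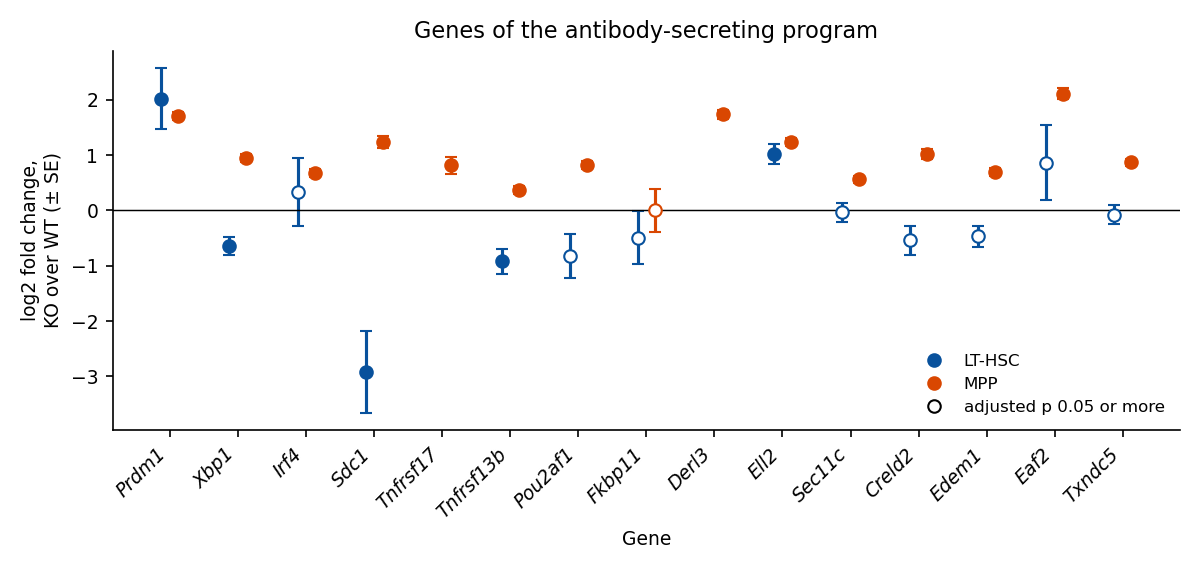
Log2 fold change of KO over WT for the 15 listed genes of the antibody-secreting program in LT-HSC (blue) and MPP (orange), with bars of 1 SE from edgeR. Filled points passed the adjusted p threshold of 0.05; Tnfrsf17 and Derl3 were not tested in LT-HSC. In MPP 14 of 15 points are filled and above 0, and in LT-HSC 2 are filled above 0 and 3 below.

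Between the populations, 9 of 15 genes of this list had a lower KO to WT ratio in LT-HSC, led by Sdc1 (-4.20, SE 0.61, adjusted p = 0.00421 by edgeR) and Tnfrsf17, the survival receptor BCMA (-3.35, SE 0.81, adjusted p = 0.0221). In LT-HSC, Tnfrsf17 had 18 and 6 counts in WT and 1 and 3 in KO, and it did not pass the filter in the fit of LT-HSC alone. Over all genes 8.50% were called lower and 13.6% higher. The Tnfrsf17 call was lost in 6 of 14 alternatives: without LT-HSC WT replicate 1 (log2 -2.41, adjusted p = 0.0685), without LT-HSC KO replicate 1 (-2.75, 0.0871), and without any 1 of the 4 MPP libraries (adjusted p 0.0562 to 0.0670). Summed over the 4 of 5 listed plasma cell markers in the tables, the level was 260 and 261 CPM in MPP WT and 512 and 530 CPM in MPP KO, and 123 and 151 CPM in LT-HSC WT and 87.6 and 95.1 CPM in LT-HSC KO. Most of each sum was Xbp1, at 193 and 198 CPM in MPP WT and 342 and 370 CPM in MPP KO. In LT-HSC, Xbp1 was at 116 and 144 CPM in WT and 77.1 and 89.1 CPM in KO. Prdm1 went the other way in LT-HSC, and Sdc1 and Tnfrsf17 were near the floor in LT-HSC KO. No plasma cell marker was at 0. The sum of 3 of 4 B cell markers was 225 to 237 CPM in MPP WT and 278 to 287 CPM in MPP KO, and 14.8 to 17.1 CPM and 24.8 to 29.1 CPM in LT-HSC WT and KO, also with none at 0. Markers of other cells moved with genotype as well: 6 neutrophil markers summed to 768 to 770.1 CPM in MPP WT and 1525 to 1552 CPM in MPP KO. In LT-HSC they summed to 8.03 and 7.84 CPM in WT and 38.3 and 42.5 CPM in KO. Most of the MPP sum was Mpo (649 and 662 CPM in WT, 1164 and 1201 CPM in KO) and Elane (112 and 103 CPM, 349 and 340 CPM). S100a9 did not rise in MPP, with 36 and 17 counts in WT and 18 and 11 in KO. In LT-HSC, 4 stromal markers summed to 21.7 to 22.6 CPM in WT and 422 to 591 CPM in KO, and 4 erythroid markers to 169.8 to 224 CPM and 907 to 1236 CPM. There, 3 megakaryocyte markers summed to 628 to 770.3 CPM in WT and 226 to 282 CPM in KO, and 4 NK cell markers to 67.5 to 71.3 CPM and 8.77 to 9.29 CPM. Most of the NK cell sum was Nkg7 (60.8 and 62.5 CPM in WT, 7.09 and 7.51 CPM in KO), and Klrb1c was lower in KO too. Ncr1 had 1 and 0 counts in WT and 1 and 2 in KO, and Prf1 was at 0. The part of these cell types in the immunoglobulin differences was not tested.

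B cell identity genes, which B cells express before they become plasma cells, gave 2 higher, 1 lower and 9 uncalled of 12 in MPP, beside 4.74% higher and 2.46% lower over all genes. The lower gene was Fcer2a, the low-affinity IgE receptor CD23, at 19.7 and 17.6 CPM in WT and 7.997 and 8.55 CPM in KO (log2 fold change -1.096, SE 0.13, adjusted p = 0.0144 by edgeR). Blnk, a signalling adaptor (log2 0.72, SE 0.10), and Cd79a, a chain of the B cell receptor (log2 0.50, SE 0.07), rose, with adjusted p of 0.0226 and 0.0237 by edgeR. With any 1 of the 4 MPP libraries left out, 0 of these 12 genes were called by edgeR, with 3 to 7 at an unadjusted p under 0.05. In LT-HSC 7 of 12 rose and 1 fell, beside 22.5% and 10.9% of all genes, led by Cr2, the complement receptor CD21, with 3 counts in each WT library and 58 and 43 in KO (log2 4.02, SE 0.54, adjusted p = 0.00131 by edgeR). Cr2 passed the filter on low counts only through the KO libraries, as did Blk, with 2 and 1 counts in WT and 24 and 11 in KO. The 7 therefore include calls that are no independent support. The 7 became 3 without LT-HSC KO replicate 1 and 4 without replicate 2.

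Genes for early assembly of the B cell receptor gave 3 higher of 6 in MPP, beside 4.74% of all genes: Il7r (log2 1.102, SE 0.11), which receives the growth signal of B cell precursors, and the surrogate light chain genes Vpreb1 (1.03, SE 0.19) and Igll1 (0.99, SE 0.13), with adjusted p of 0.0116, 0.0424 and 0.0206 by edgeR. In MPP the fit of all 8 libraries tested 5 of them and called 0, with 5 at an unadjusted p under 0.05 by edgeR, while DESeq2 called 4 of 6. Over all alternatives the log2 fold change ran from 0.97 to 1.22 for Il7r, 0.82 to 1.275 for Vpreb1 and 0.89 to 1.075 for Igll1. In LT-HSC 1 gene of the list passed the filter and it was not called, while the fit of all 8 libraries tested 5 and called 4 higher, and 0 to 2 were called higher when a library was left out. Of the class switching and DNA repair genes, 1 of 12 fell in MPP (Mad2l2, a repair factor, log2 -0.71, SE 0.14, adjusted p = 0.0477 by edgeR) and 1 of 11 rose in LT-HSC (Prkdc, the DNA-dependent protein kinase, log2 0.60, SE 0.16, adjusted p = 0.0194). Over all genes 7.20% were called in MPP and 33.4% in LT-HSC, and in the fit of all 8 libraries 2 of 12 rose and 3 fell in LT-HSC. DESeq2 called 0 of them in either population, with 3 of 12 and 2 of 11 at an unadjusted p under 0.05. The Mad2l2 call was lost in each fit without a library, and that of Prkdc without LT-HSC WT replicate 1 or either KO library.

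Receptors that bind immunoglobulin gave 0 calls of 7 in MPP by edgeR and by DESeq2, with 0 at an unadjusted p under 0.05. In LT-HSC, where 22.5% of all genes rose and 10.9% fell, 1 of 5 rose, the IgG receptor Fcgr3 (1 and 0 counts in WT, 24 and 26 in KO, adjusted p = 0.00221 by edgeR). The IgE receptor chains Fcer1a (log2 -3.89, SE 0.72, adjusted p = 0.00419) and Fcer1g (-1.66, SE 0.32, adjusted p = 0.00496) were the 2 that fell. Fcgr3 passed the filter on low counts only through the KO libraries. Fcer1a, with 42 and 21 counts in WT and 1 and 3 in KO, passed it only through the WT libraries. The calls of Fcgr3 and Fcer1a are therefore no independent support. The call of Fcer1a was lost without LT-HSC KO replicate 1 (adjusted p = 0.0569).

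Among 12150 genes outside the immunoglobulin loci with a mean of at least 5 CPM, the profile most like that of Ighg1 over the 8 libraries was that of Tnfaip8l2, an immune regulator (Pearson r = 0.9993 of log2(CPM + 1)). It stood at 7.85 and 6.23 CPM in LT-HSC WT, 0.187 and 0.395 CPM in LT-HSC KO, and 12.5 to 14.2 CPM in the 4 MPP libraries. Crebbp (0.9956) and Cpne1 (0.9948) followed, both with much smaller ranges. For Ighg3 the nearest was Sec11c, a signal peptidase subunit (0.9978), then Fam46c (0.9973) and AC158671.1 (0.9967). Sec11c was at 54.3 to 57.1 CPM in LT-HSC, 94.81 and 95.01 CPM in MPP WT and 132 and 135 CPM in MPP KO.

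The profiles nearest to Ighm were those of Pglyrp1 (0.9989), Il2rb (0.9970) and Gm11029 (0.9969), and the same 3 genes were nearest to Igj (0.9968, 0.9966 and 0.9971). Igkc was nearest to Chst1 (0.9962), Pglyrp1 (0.9954) and Rasgrp3 (0.9951). These correlations describe 8 libraries in 4 groups that share population, genotype and depth, and no p is given.

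Replicates also differed in a patterned way. In MPP, Igkc and Igj were higher in replicate 2 in both genotypes, with log2 ratios of replicate 1 over 2 of -0.33 and -0.38 in WT and -0.40 and -0.54 in KO, while the 4 gamma genes were higher in replicate 1, by 0.09 to 0.29 in WT and 0.18 to 0.30 in KO. The median absolute difference over all genes was 0.14 in WT and 0.16 in KO. In LT-HSC WT, Ighm, Ighg1, Ighg2b, Ighg2c, Igkc and Igj were all higher in replicate 1, by 0.51 to 0.88, against a median of 0.32 over all genes.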

How the data were processed

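RNA was measured in 8 libraries by paired-end sequencing of 50 bp reads. The submitters' processing notes name CASAVA, TopHat and the mm9 build; versions, counter and annotation were not stated there. For LT-HSC and for MPP the authors deposited a table of raw counts by gene and library. Per the file headers, the tables also hold the authors' log2 fold change and log2 CPM, a likelihood ratio score, and a p-value with FDR, used here only where named.

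Genotype and replicate in the column names identified each sample. Counts were filtered with filterByExpr, scaled by TMM and tested with edgeR 4.0.16 (quasi-likelihood, R 4.3.3, limma 3.58.1) over all genes, with libraries of the 2 groups compared, and all 8 for the interaction of population and genotype. The SE was obtained as log2 fold change over the root of the F statistic. Alternatives were DESeq2 1.42.0, other scalings, no filter, a common fit, a block for replicate number and leaving out each library. The fits were first tested on simulated data. A floor of 3 counts, the limit that a count of 0 allows, was 0.547 to 0.603 CPM in LT-HSC and 0.2399 to 0.251 CPM in MPP. Intervals are Clopper-Pearson at 95% and cover counting error only, as no molecular identifiers are described.

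Named were all members, at most 3 called genes per list and comparison by size of change, and the 3 genes most correlated with each of Ighm, Ighg1, Ighg3, Igkc and Igj; Fkbp11 and the heavy chain J segments were named after their values were seen. Members and lists were chosen with earlier results of these data known. Sequences and lengths came from GENCODE M21 on GRCm38 and coordinates of genes from the deposited tables on mm9.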

Additional observations from a re-analysis of the deposited data

Results flagged for a closer look

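Of the 9 genes matched in both tables, 5 were picked out because the KO to WT ratio differed between LT-HSC and MPP by the interaction test of edgeR. The differences, LT-HSC minus MPP on the log2 scale, were -7.60 for Ighg1, -4.52 for Ighg3, -2.23 for Ighg2c, -1.90 for Ighg2b and -1.48 for Igj. Groups of 2 libraries were too small for a check for outlying libraries.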

How the results depend on the processing

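In LT-HSC 1 gene was called, against 2 with DESeq2, 2 with scaling to plain library size, 3 in the fit of all 8 libraries and 1 to 3 when a library was left out. In MPP the count was 8, and 0 to 7 when a library was left out. The interaction gave 5, against 7 with DESeq2 and 3 to 7 when a library was left out. All 9 genes were lower in LT-HSC under every alternative run. Signs that changed, all in values not called: leaving out a library gave a log2 fold change in LT-HSC of -0.46 to 0.18 for Igj (positive without WT replicate 1) and of -0.30 to 0.55 for Ighm (-0.30 without WT replicate 2, -0.09 without KO replicate 1). For the Iglc2 interaction it gave values from -2.68 up, with 0.11 without LT-HSC KO replicate 1. Without LT-HSC WT replicate 1 no Iglc2 count was left in LT-HSC WT, so the fitted 5.51 gives no fold change. In LT-HSC the log2 KO to WT ratio of the summed heavy chain level ran from -0.61 to 0.086 and that of the J chain level from -0.36 to 0.15, both positive without WT replicate 1. The cause was not tested.

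The log2 ratio of the summed heavy chain level in MPP was 1.45, against 1.52 with TMM-scaled CPM and 1.53 with immunoglobulin genes left out of the total. The gamma share of heavy chain counts was 63.5% in LT-HSC WT and 50.3% in LT-HSC KO per kilobase of gene span. Per kilobase of exon, a scale chosen after seeing the data, it was 67.7% and 54.2% in LT-HSC (WT, KO) and 32.7% and 53.8% in MPP (WT, KO). With plain library size, the genes called in MPP split into 609 higher and 643 lower instead of 707 and 366, and those in KO LT-HSC over KO MPP into 5004 and 2801 instead of 4386 and 3811, with an all-gene median of 0.13 instead of -0.01.

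Groups share replicate numbers, but no label says that a number marks an animal or batch. Deviations of same-numbered libraries correlated over genes at 0.406 to 0.683 in the 4 comparisons, each with only 2 numbers. With the replicate block 4 genes were called in LT-HSC (Ighg1, Ighg2b, Ighg2c and Igkc), 10 in MPP and 7 in the interaction.

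LT-HSC libraries were less deeply sequenced than MPP libraries, which limits the precision for Ighg3, Iglc2 and Iglc3 there.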

Other observations

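Heavy chain J segments, which sit between the variable part and the constant gene of a rearranged heavy chain, are no members of the set above and were singled out after their values were seen. In LT-HSC, Ighj3 had 55 and 28 counts in WT and 2 and 1 in the libraries labelled KO, with separate groups, and fell by 4.67 on the log2 scale (SE 0.71, adjusted p = 0.00208 by edgeR). There Ighj3 passed the filter on low counts only through the WT libraries, so its call is no independent support. In MPP it had 762 and 556 counts in WT and 1750 and 1239 in KO and rose (adjusted p = 0.0423), a call lost without the filter on low counts and without any 1 of the 4 libraries. Ighj1 and Ighj4 also rose in MPP, by 2.59 (SE 0.21) and 2.42 (SE 0.14), with adjusted p of 0.00727 and 0.00285. Ighj2 did not pass (0.43, SE 0.19, adjusted p = 0.221).

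Variable segments gave summed levels of 6824 CPM in MPP WT and 17496 CPM in MPP KO for the heavy chain, and of 9234 and 21571 CPM for kappa. Lambda variable segments were at 564 and 488 CPM.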
